A study of Mus musculus with 6 samples.

Results

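The 5 genes followed here belong to the interleukin 6 (IL-6) family and were measured in LPS-stimulated mouse macrophages: the cytokines Il6, Osm and Lif and the receptor chains Il6ra and Il6st. Members were taken by symbol, as every probe set annotated to one of the 5 genes on all 6 arrays. Of 22690 probe sets, 8 were members: 1 for Il6, 2 for Lif, 2 for Il6ra and 3 for Il6st. No probe set in the annotation used here carried the symbol Osm, so Osm was not analysed here. The cells were bone marrow-derived macrophages (BMDM) of strain C57BL/6J, either wild type or knockout for IκBβ, the NF-kB inhibitor encoded by Nfkbib. Marrow cells that did not adhere overnight were differentiated for 7 days in medium with 30% supernatant of L929 cells, a mouse fibroblast line that secretes the macrophage growth factor M-CSF. Both genotypes received 1 µg/ml LPS, a bacterial cell wall component sensed by Toll-like receptor 4, for 0 h, 1 h or 5 h. Each genotype and time was measured on 1 Mouse Genome 430A 2.0 array. The sources used here do not give the age or sex of the mice, how the knockout allele was made, or how many animals were used.

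Cytokines of this family signal through a shared transmembrane chain, gp130, encoded by Il6st. IL-6 first binds its own receptor chain, encoded by Il6ra, whereas leukaemia inhibitory factor (Lif) and oncostatin M (Osm) use gp130 together with the chains encoded by Lifr or Osmr. Engaged gp130 activates Janus kinases and the transcription factor STAT3, and STAT3 induces Socs3, which binds gp130 and limits the signal. Macrophages that sense LPS are a major source of IL-6, and transcription of Il6 depends on NF-kB, C/EBP and AP-1 factors.

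The labels were checked first, on the MAS5 signal, a linear measure of probe set brightness. The Nfkbib signal was 477, 3330 and 5007 on the wild-type arrays at 0 h, 1 h and 5 h, and 30.5, 136 and 56.1 on the knockout arrays; the sources used here do not say where its probes lie relative to the deletion. Xist read 52.1 to 80.4 in wild type and 2149 to 5634 in knockout, and the Y-linked gene Eif2s3y read 570 to 860 in wild type and 0.896 to 10.7 in knockout. The wild-type RNA was thus male and the knockout RNA female, so genotype and sex cannot be told apart. The summed signal of 8 macrophage markers was 83189 to 91380 in wild type and 76120 to 85959 in knockout. Within that sum single markers moved in opposite directions with LPS. In knockout Cd14 rose from 10304 at 0 h to 17307 at 5 h and Fcgr1 from 3705 to 12737. Csf1r fell from 15334 to 13348 and Cd68 from 13151 to 9675, and each moved the same way in wild type. The median signal fell with LPS in both genotypes, from 113 to 70.7 in wild type and from 117 to 65.2 in knockout. Of the genes called at 5 h, 26.5% were higher at the deposited scale, 39.2% after quantile normalization and 58.9% after median centring. At 1 h these shares were 47.8%, 56.1% and 66.3%, and for 5 h against 1 h they were 29.0%, 41.9% and 60.1%.

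The sequences just before the RefSeq starts of Il6 and Lif (GRCm38.p6) are shown because these were the members that rose with LPS. Each run gives the 250 bases before the start, 5′ to 3′ on the gene's strand, with matches to the searched motifs in capitals. Il6 lies on the plus strand at chr5:30012864-30013113 and Lif on the plus strand at chr11:4257318-4257567.
Il6: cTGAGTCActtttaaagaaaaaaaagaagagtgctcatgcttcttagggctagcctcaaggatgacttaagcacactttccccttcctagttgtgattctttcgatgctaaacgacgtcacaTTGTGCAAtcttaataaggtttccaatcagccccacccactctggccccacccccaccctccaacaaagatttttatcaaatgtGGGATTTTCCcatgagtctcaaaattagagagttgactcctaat
Lif: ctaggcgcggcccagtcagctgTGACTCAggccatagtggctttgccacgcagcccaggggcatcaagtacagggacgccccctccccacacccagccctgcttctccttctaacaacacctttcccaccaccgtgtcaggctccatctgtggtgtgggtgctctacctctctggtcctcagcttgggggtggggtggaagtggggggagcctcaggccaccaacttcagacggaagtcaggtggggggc
Il6 held the NF-kB letters GGGATTTTCC at 44 to 35 bases before the start, the C/EBP letters TTGTGCAA at 128 to 121 and the AP-1 letters TGAGTCA at 249 to 243. Lif held the AP-1 letters TGACTCA at 228 to 222. The letters searched, on both strands, were GGG, any 2 bases and TTTCC for NF-kB, TTGNNCAA for C/EBP, TGANTCA for AP-1, TGACGTCA for the cAMP response element, TTCNNNGAA for STAT and TATAAA for the TATA box. Among 32851 RefSeq promoter windows, which run from 250 bases before to 50 bases after the start, 1.63% held the NF-kB letters, 6.40% C/EBP, 7.81% AP-1, 1.79% the cAMP response element, 8.30% STAT and 13.6% TATAAA. The windows of Il6ra and Il6st held none of the 6. A looser NF-kB pattern, GGG with any 5 bases and CC, which contains the stricter one, was present in 50.8% of windows and is not shown in capitals. These matches are letters in a window and were not tested for binding. In the RefSeq gene order Osm and Lif are neighbouring protein-coding genes on chromosome 11, and Il6st on chromosome 13 neighbours Il31ra, another receptor gene of the family.

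Il6 was under the signal floor at 0 h and rose at both LPS times. In wild type Il6 read 4.21 at 0 h, 5864 at 1 h and 20267 at 5 h, and in knockout it read 2.13, 4821 and 18040. Both genotypes followed the same order, and neither LPS time overlapped 0 h. Before log2 was taken, a floor was set at the 25th percentile of the signals, 18.2, and lower ones were set to it, so each fold of Il6 against 0 h is a lower bound at that floor. Il6 was at least 321-fold higher at 1 h and at least 1111-fold higher at 5 h in wild type, and at least 264-fold and 989-fold higher in knockout. The fit with limma, which takes genotype and time as additive terms over all 6 arrays, gave a log2 rise of 8.19 at 1 h (SE 0.12, adjusted p = 0.000789) and of 10.03 at 5 h (SE 0.12, adjusted p = 0.000321). The size of these estimates is set by the floor. They were 6.83 and 8.68 with the floor at the 40th percentile, and 10.09 and 11.94 with it at the 10th, and Il6 was called under each. Both 0 h signals, 4.21 and 2.13, were set to the floor, so the SE and p-values leave out the spread between them. Between 1 h and 5 h the signal rose by a further 1.85 (SE 0.12, limma adjusted p = 0.000951), 1.79 in wild type and 1.90 in knockout. The highest signal of any probe set was 25581 on the wild-type and 21071 on the knockout array at 5 h, and the file gives no flag for saturation.

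**Figure D1:**
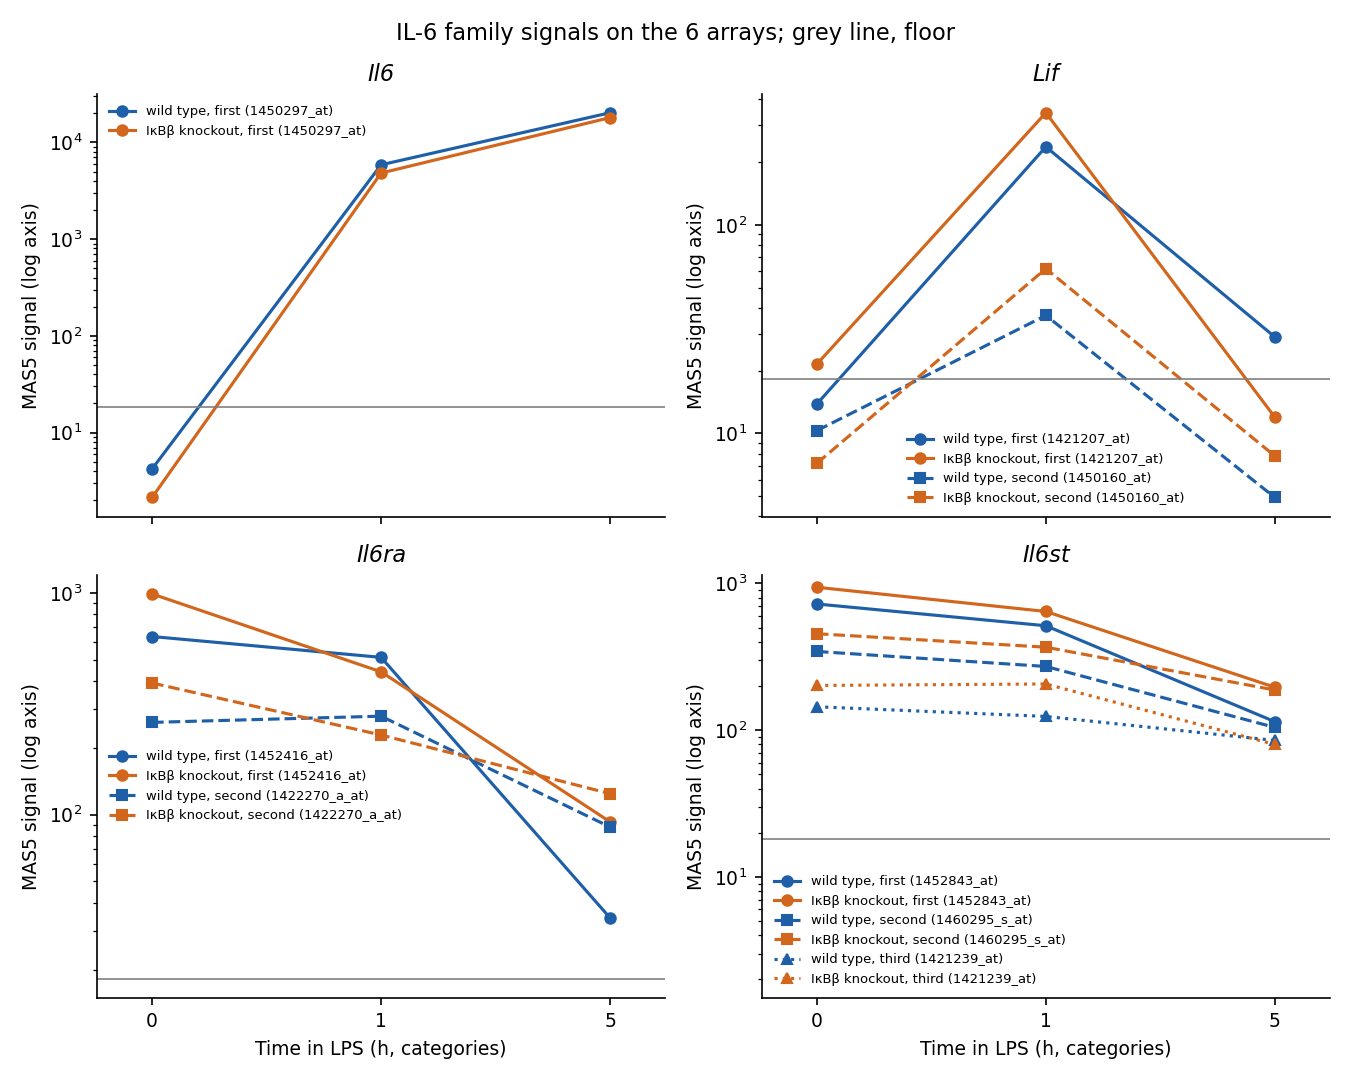
MAS5 signal (log axis) of each member probe set against time in LPS (0, 1 and 5 h, drawn as categories), with 1 array per point, blue for wild type and orange for IκBβ knockout; the grey line is the floor of 18.2, and probe sets are numbered by mean signal. Il6 climbed to 20267 and 18040 at 5 h, Lif peaked at 1 h, and Il6ra and Il6st were lowest at 5 h.

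Lif, a cytokine best known for holding mouse embryonic stem cells undifferentiated, rose at 1 h and was back near the floor at 5 h. Its brighter probe set, called the first here, read 13.8, 237 and 29.0 at 0 h, 1 h and 5 h in wild type against 21.5, 345 and 12.0 in knockout. The 1 h arrays stood above the other 4, and the wild-type 0 h and knockout 5 h signals were under the floor. At 1 h the limma estimate was a log2 rise of 3.85 (SE 0.32, adjusted p = 0.00898), with 3.70 or more in wild type and 4.0 in knockout. That call rests on both 1 h arrays. The estimate was 4.23 (limma adjusted p = 0.0545) without the wild-type 1 h array, 3.47 (limma adjusted p = 0.0689) without the knockout one, and 3.85 (limma adjusted p = 0.0746) when dim genes were kept in the test. From 1 h to 5 h Lif fell by 3.64 (SE 0.32, limma adjusted p = 0.0017). At 5 h the difference from 0 h was 0.22 (SE 0.32, limma adjusted p = 0.576); without the knockout 5 h array it was 0.75 (limma adjusted p = 0.0339). The second probe set stayed under each array's median and was not tested. It read 10.3, 36.8 and 4.93 in wild type against 7.19, 61.7 and 7.80 in knockout, with the 1 h array the highest in both genotypes.

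Il6ra, the chain that binds IL-6 itself, was lower at 5 h than at 0 h on both of its probe sets. Its first and brighter probe set read 635, 512 and 34.3 in wild type against 989, 440 and 92.8 in knockout. Both 5 h signals lay below all 4 earlier ones. The limma estimate at 5 h was −3.81 (SE 0.42, adjusted p = 0.00203), with −4.21 in wild type and −3.41 in the knockout. At 1 h it was −0.74 (SE 0.42, limma adjusted p = 0.283), −0.31 in wild type and −1.17 in knockout. This 1 h estimate rests on single arrays, at −1.37 without the wild-type 1 h array and −0.11 without the knockout one (limma adjusted p = 0.183 and 0.863). Most of the difference lay between 1 h and 5 h, where Il6ra fell by 3.07 (SE 0.42, limma adjusted p = 0.00482). The second probe set read 261, 278 and 88.0 in wild type against 392, 229 and 124 in knockout. Its 5 h estimate was −1.61 (SE 0.26, limma adjusted p = 0.00573 with every probe set tested), a smaller difference than that of the first in the same cells. Its fall between 1 h and 5 h was called at the deposited scale (−1.27, limma adjusted p = 0.0145), but not after quantile normalization (−0.69, limma adjusted p = 0.0839) or median centring (−0.68, limma adjusted p = 0.0533).

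Il6st, the shared chain gp130, also fell by 5 h. Its first and brightest probe set read 723, 514 and 114 in wild type against 941, 643 and 196 in knockout. Each genotype fell at each step, and both 5 h signals lay below the 4 others. The 5 h estimate was −2.46 (SE 0.16, limma adjusted p = 0.000586), with −2.66 in wild type and −2.26 in the knockout. At 1 h it was −0.52 (SE 0.16, limma adjusted p = 0.111), and from 1 h to 5 h it was −1.94 (SE 0.16, limma adjusted p = 0.00138). The second probe set read 343, 272 and 104 in wild type against 454, 367 and 188 in knockout, with a 5 h estimate of −1.50 (SE 0.16, limma adjusted p = 0.00194). The third one read 144, 124 and 85.1 in wild type against 202, 206 and 79.8 in knockout, with a 5 h estimate of −1.05 (SE 0.23, limma adjusted p = 0.0156). For this probe set the scale decides the call, as the 5 h estimate was −0.28 after quantile normalization (limma adjusted p = 0.31) and −0.29 after median centring (limma adjusted p = 0.295).

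In RNA from whole cultures, fewer cells of a type and less RNA per cell cannot be told apart. The summed signal of 5 B-cell markers fell alongside the receptor chains, from 3523 at 0 h to 348 at 5 h in wild type and from 3698 to 370 in knockout. Nearly all of that sum was Ighm, the immunoglobulin mu heavy chain, at 3371, 2308 and 268 in wild type against 3571, 2563 and 304 in knockout. The defining marker Pax5 was under the floor on all 6 arrays, Cd79a on 5 and Ms4a1 on 4. Cd79a was highest at 5 h, at 15.3, 13.2 and 45.3 in wild type against 4.69, 7.19 and 7.80 in knockout. Ms4a1 differed in direction, at 11.3, 18.3 and 3.17 in wild type against 4.51, 3.56 and 20.8 in knockout. Cd79b, a chain of the B-cell receptor complex, was above the floor on all 6 and also lower at 5 h, at 119, 89.1 and 24.9 in wild type against 111, 84.7 and 30.4 in knockout. The summed signal of 7 neutrophil markers rose with LPS, from 302 at 0 h to 737 at 5 h in wild type and from 322 to 1341 in knockout, mostly through S100a8, with Ltf under the floor on all 6 arrays. The 8 fibroblast markers summed to 254 to 365 in wild type and 140 to 277 in knockout. The part of these cells in the member changes was not tested.

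Against all 7508 genes tested, 2 of the 4 members were called at 1 h, Il6 and Lif, both higher; 5.42% of all genes were called higher at that time, 5.91% lower and 11.3% either way. At 5 h, 3 of 4 were called, beside 73.5% of all genes. Il6 was higher, as were 19.5% of all genes, and Il6ra and Il6st were lower, as were 54.0%. From 1 h to 5 h, 1 member rose and 3 fell, beside 18.5% of all genes called higher, 45.5% called lower and 64.0% either way. At the deposited scale a fall at 5 h was thus the commonest outcome on these arrays. The comparisons at 1 h and 5 h share the 0 h arrays. The median log2 change of all genes was −0.18 at 1 h and −0.57 at 5 h, where it became −0.22 after quantile normalization and 0.19 after median centring. Under those scalings the 5 h estimates were −3.31 and −3.05 for Il6ra and −1.94 and −1.70 for Il6st, and both calls held. A gene entered the test if it exceeded an array's median at least once; Il6 did so on the 4 LPS arrays and Lif on the 2 arrays of 1 h, so their passing already required a rise.

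**Figure D2:**
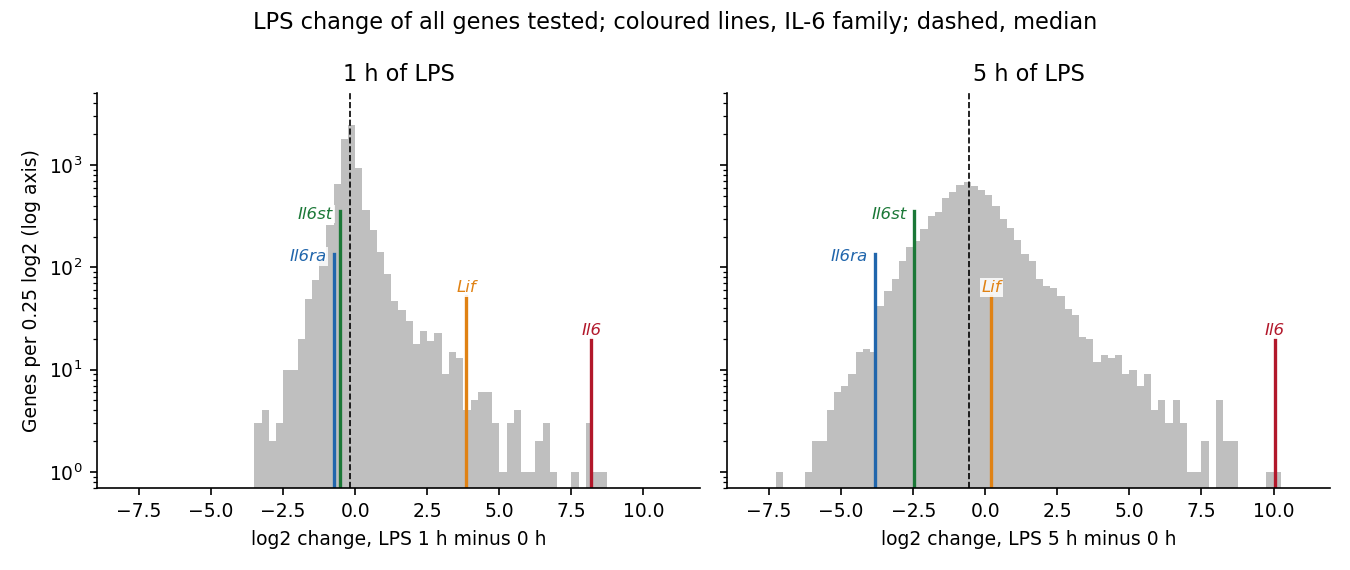
Number of genes (log axis) per bin of log2 LPS change at 1 h (left) and 5 h (right) for the 7508 genes tested, with coloured lines at the 4 members and a dashed line at the median of all genes, −0.18 and −0.57. Il6 lies at the right edge in both panels, Lif is high at 1 h only (3.85), and Il6ra and Il6st lie left of the median at 5 h (−3.81 and −2.46).

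No member was called between knockout and wild type, 0 of 4 by the limma test. The estimates, averaged over the 3 times, were −0.15 for Il6 (SE 0.099, adjusted p = 0.664), 0.04 for Lif (SE 0.26, adjusted p = 0.969), 0.62 for Il6ra (SE 0.34, adjusted p = 0.633) and 0.49 for Il6st (SE 0.13, adjusted p = 0.549). Across all genes the same test called 1 gene, 0.0133%, with 629 at an unadjusted p under 0.05. That gene was lower in knockout and 0 genes were called higher. Even Xist was thus not called, at 6.76, 5.70 and 5.11 log2 above wild type in time order. A missing call here therefore does not show that the genotypes were alike. Il6 was under the floor in both genotypes at 0 h. Its log2 signal in knockout stood at −0.28 relative to wild type at 1 h and −0.17 at 5 h. Both values are smaller than the SD of that difference over all genes, which was 0.40 at 1 h and 0.48 at 5 h. The other members exceeded that SD on their first probe sets, though not at every time. Among these differences were 0.54 for Lif at 1 h, 1.44 for Il6ra at 5 h and 0.78 for Il6st at 5 h.

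Il6st read higher in knockout at most times. On the first probe set the knockout exceeded wild type by log2 values of 0.38, 0.32 and 0.78 in time order, and on the second it was 0.40, 0.44 and 0.85. On the third it was 0.48, 0.73 and −0.09, so that probe set departs from the others at 5 h. The single largest member difference was that of Il6ra at 5 h, 1.44 on the first probe set, a 2.71-fold higher signal in knockout; on the second it was 0.50. With signals raised to the floor, Il6ra at 5 h was the 1 difference of at least 2-fold among the 4 members at any time. The Lif signals at 5 h, 29.0 and 12.0, leave only a bound, since the knockout one was under the floor. Of all genes, 4.85% had such a difference at 5 h, 2.98% at 1 h and 2.04% at 0 h. With 1 array in each group, whether the genotype changes the response to LPS could not be tested.

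**Figure D3:**
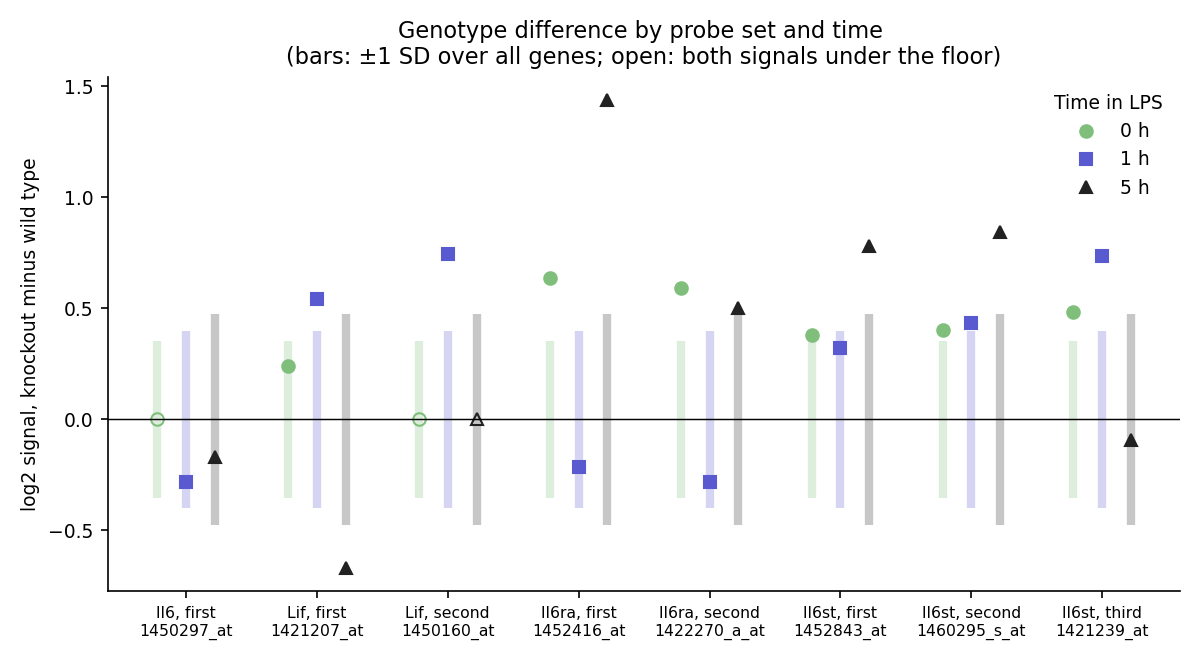
Log2 signal in knockout minus wild type for each member probe set at 0 h (circles), 1 h (squares) and 5 h (triangles), 1 pair of arrays per point; vertical bars span 1 SD of that difference over all genes on each side of 0 (0.35, 0.40 and 0.48), and open symbols mark pairs with both signals under the floor. Il6 lies within the bars, and the first Il6ra probe set at 5 h is the highest point, at 1.44.

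For each member, the genes with the most similar profile were found as the smallest root mean square distance between log2 values centred on each gene's own mean, over the 6 arrays. Nearest to Il6 were Ptgs2, the inducible cyclooxygenase, at a distance of 0.24 (Pearson r 0.998), Serpinb2 (0.72), the cytokine Il1a (0.94) and Socs3 (1.04). All but Socs3 were under the floor at 0 h, where their profiles cannot be told from that of Il6. Ptgs2 read 1.51, 5367 and 16749 in wild type against 13.0, 6629 and 15178 in knockout. Nearest to Lif were the nuclear receptor gene Nr4a1 (0.38), Cdk5r1 (0.40), the AP-1 gene Fosl1 (0.46) and Ifnb1, interferon beta (0.48), all of which peaked at 1 h. Ifnb1 read 88.2, 1629 and 127 in wild type against 50.3, 1955 and 81.4 in knockout. Nearest to Il6ra were Kmt5c (0.17), Las1l (0.26), Atg2a (0.27) and Cd28 (0.28), and nearest to Il6st were St6galnac6, Atg2b, Mrtfa and Gatc (0.14 each), all lowest at 5 h. These are descriptions over 6 arrays that share one LPS response.

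The wider pathway was taken as 59 genes in 7 lists. Of these, 50 had a probe set of a single symbol and 44 were bright enough to test. At 1 h 22 rose and 0 fell, and at 5 h 31 rose and 6 fell, beside 5.42% of all genes called higher and 5.91% lower at 1 h, and 19.5% and 54.0% at 5 h. The genes Clcf1, Ctf1, Socs1, Socs3, Rhbdf1, Rel, Myc and Timp1 exceeded an array's median only with LPS, so they entered through LPS arrays. A rise was not needed by each, because the median itself fell with LPS, from 113 to 70.7 in wild type. Rhbdf1 entered on the wild-type 5 h array at 91.4, against 83.2 at 0 h. Among the other 36, 16 rose and 0 fell at 1 h, and 25 rose and 6 fell at 5 h.

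Among 9 other ligands of the family, 3 were tested. Clcf1, cardiotrophin-like cytokine factor 1, read 30.5, 188 and 85.3 in wild type against 14.4, 68.0 and 47.5 in knockout on its brightest probe set. Clcf1 rose by 2.26 at 1 h (SE 0.22, limma adjusted p = 0.0114) and by 1.43 at 5 h (SE 0.22, limma adjusted p = 0.00498). The 1 h call was lost without the wild-type 0 h array (limma adjusted p = 0.0529), without the wild-type 1 h array (0.0543), with the floor at the 40th percentile (0.0791), with dim genes kept (0.0782) and without the genotype term (0.0631). The 5 h call was lost with the floor at the 40th percentile (0.45, limma adjusted p = 0.303) and without the genotype term (limma adjusted p = 0.0693). Ebi3, a subunit of IL-27, rose at 5 h, from 1953 to 9152 in wild type and from 1679 to 6830 in knockout (2.13, SE 0.11, limma adjusted p = 0.000436); at 1 h it was 0.38 (limma adjusted p = 0.108). Ctf1, cardiotrophin 1, gave 1.78 at 1 h (limma adjusted p = 0.127) and 0.60 at 5 h (limma adjusted p = 0.398). Il11 read 6.74 to 54.4 and was not tested. The median of the 3 tested ligands was 1.78 at 1 h and 1.43 at 5 h, beside −0.18 and −0.57 for all genes. Clcf1 and Ctf1 entered only through LPS arrays, so these medians were partly set by the filter. On its brightest probe set Clcf1 was lower in knockout than in wild type at all 3 times, by log2 values of −0.74, −1.47 and −0.84. The limma estimate was −1.02 (SE 0.18, adjusted p = 0.53). The 0 h value rests on a knockout signal under the floor. The other Clcf1 probe sets were under the floor in both genotypes at 0 h. At 1 h they read 211 and 154 in wild type against 49.2 and 72.1 in knockout. At 5 h the genotypes lay closer, at 69.0 and 94.0 against 63.1 and 77.8.

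Among 6 other receptor chains, 1 was bright enough to test. Lifr, which pairs with gp130 for Lif, read 133, 107 and 63.9 in wild type against 180, 151 and 42.0 in knockout. Lifr fell by 1.58 at 5 h (SE 0.32, limma adjusted p = 0.012) and was at −0.28 at 1 h (limma adjusted p = 0.568). The 5 h call was lost after quantile normalization (−0.87, limma adjusted p = 0.0672), with dim genes kept (limma adjusted p = 0.0746) and without the knockout 0 h array (−1.33, limma adjusted p = 0.0546). A second Lifr probe set read 148, 75.1 and 2.51 in wild type against 154, 132 and 11.7 in knockout. With every probe set tested, its 5 h estimate was −3.05 (limma adjusted p = 0.000941), with both 5 h signals under the floor. The mean over the Lifr probe sets gave −2.31 at 5 h (limma adjusted p = 0.00181). Osmr, the chain for oncostatin M, stayed at 1.59 to 35.5 on its pair of probe sets. Cntfr stayed at 2.43 to 28.7, Il27ra at 8.44 to 28.2 and Il31ra at 2.94 to 48.1, and none of these was tested.

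Among 10 kinases, STATs and adaptors that carry the signal from gp130, 9 were tested. At 1 h 1 rose and 0 fell, and at 5 h 4 rose and 2 fell, with a median of −0.01 and 0.46. The 6 of 9 called at 5 h lie near the 73.5% called among all genes. Jak2, a kinase bound to gp130, rose at both times (1.83, limma adjusted p = 0.00507, and 3.63, limma adjusted p = 0.000321), from 562 to 6690 in wild type and from 550 to 7113 in knockout at 5 h. Stat3 rose at 5 h (2.32, SE 0.15, limma adjusted p = 0.000586), from 1447 to 6740 and from 1680 to 8931, and was at 0.29 at 1 h (limma adjusted p = 0.245). Sos1, an activator of Ras, rose by 2.63 and the adaptor Grb2 by 0.46 at 5 h (limma adjusted p = 0.000619 and 0.0179). The Grb2 rise holds on its brightest probe set only. A dimmer one, left out of the count, was at −0.80 at 5 h (limma adjusted p = 0.00605 with every probe set tested). The docking protein gene Gab1 fell by 1.76 and the adaptor Shc1 by 0.45 (limma adjusted p = 0.000603 and 0.0252). Jak1, the kinase most needed by gp130, was at 0.01 at 1 h (limma adjusted p = 0.969) and 0.27 at 5 h (limma adjusted p = 0.0947) on its brightest probe set. Its dimmer probe sets were called higher at 5 h with every probe set tested, at 0.84 and 0.34 (limma adjusted p = 0.00402 and 0.048). After median centring 7 of the 9 rose and 1 fell at 5 h, and without either 1 h array 0 rose at 1 h.

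Among 7 inhibitors of the signal, 6 were tested. At 1 h 2 rose, Socs3 and Socs1, which entered only through LPS arrays. At 5 h 4 rose and 1 fell, and the medians were 0.17 and 0.72. Beside these counts, 5.42% of all genes were called higher at 1 h, and 19.5% higher and 54.0% lower at 5 h. Socs3 read 22.2, 12191 and 13205 in wild type against 85.3, 12897 and 12116 in knockout. Socs3 rose by 8.17 at 1 h (SE 0.57, limma adjusted p = 0.00539) and 8.18 at 5 h (SE 0.57, limma adjusted p = 0.000677). Socs1, which blocks Janus kinases, rose by 2.99 and 6.62 (limma adjusted p = 0.00792 and 0.000321), with its wild-type 0 h signal under the floor, and the phosphatase gene Ptpn2 rose by 0.83 at 5 h (limma adjusted p = 0.00409). Pias3, an inhibitor of STAT3, fell by 1.45 at 5 h (limma adjusted p = 0.00185). Without either 1 h array the count at 1 h was 1, and with dim genes kept it was 0. Among 4 genes for shedding of the IL-6 receptor, 3 were tested and 1, the protease gene Adam10, fell at 5 h (−1.23, limma adjusted p = 0.00102), from 2668 to 1147 in wild type and from 2412 to 1016 in knockout. At that time 54.0% of all genes were called lower. Adam17, the other main sheddase, was at 0.30 at 1 h and 0.12 at 5 h (limma adjusted p = 0.241 and 0.481). After median centring 1 of the 3 rose and 1 fell at 5 h.

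Among 11 regulators of Il6 transcription or mRNA stability, 10 were tested and all 10 rose at both times, with a median of 1.45 at 1 h and 2.62 at 5 h. Of all genes, 5.42% were called higher at 1 h and 19.5% at 5 h, and the 9 regulators other than Rel did not need LPS to enter the test. Rel, an NF-kB subunit, rose from 86.8 to 1972 in wild type and from 69.4 to 2027 in knockout at 1 h (4.69, limma adjusted p = 0.00167). Nfkbiz, the nuclear cofactor IκBζ needed for Il6 induction, read 791, 12387 and 10652 in wild type against 620, 10368 and 10225 in knockout, and rose by 4.02 at 1 h (limma adjusted p = 0.00135) and 3.90 at 5 h (limma adjusted p = 0.000321). Zc3h12a, the RNase Regnase-1 that degrades Il6 mRNA, rose by 3.36 at 1 h (limma adjusted p = 0.00423). Arid5a, which protects Il6 mRNA, rose by 0.90 at 1 h (limma adjusted p = 0.0426) and 3.56 at 5 h (limma adjusted p = 0.000374). The 1 h count was 4 without either 1 h array, and 5 without either 0 h array or with dim genes kept.

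Among 16 known STAT3 targets, all tested, 12 rose and 0 fell at 1 h, and 15 rose and 1 fell at 5 h; the medians were 2.07 and 2.74. Without Socs3, Myc and Timp1, which entered only through LPS arrays, 9 of 13 rose at 1 h and 12 at 5 h. Of all genes, 5.42% were called higher and 5.91% lower at 1 h, and 19.5% and 54.0% at 5 h. The genes Socs3, Bcl3, Cebpb and Cebpd stand in a second list as well. Myc rose by 4.28 at 1 h (limma adjusted p = 0.00676) and 1.03 at 5 h (limma adjusted p = 0.0444). Il1rn, the IL-1 receptor antagonist, rose by 4.06 and 5.96 (limma adjusted p = 0.00423 and 0.000338), from 245 to 16583 in wild type and from 307 to 17564 in knockout at 5 h. Timp1, an inhibitor of metalloproteinases, rose by 4.52 at 5 h (limma adjusted p = 0.000565). Vegfa fell by 2.27 at 5 h (limma adjusted p = 0.00469), from 893 to 118 and from 785 to 255, after 1.02 at 1 h (limma adjusted p = 0.129). The rise counted for Mcl1 at 5 h, 0.49 on its brightest probe set (limma adjusted p = 0.0182), depends on the probe set. With every probe set tested, dimmer ones were called both higher (0.92, limma adjusted p = 0.00428) and lower (−0.46 and −0.35, limma adjusted p = 0.0205 and 0.043). The 1 h count was 4 without either 1 h array, 8 without either 0 h array and 5 with dim genes kept. Between the genotypes, 0 of the 44 pathway genes were called by limma, beside 0.0133% of all genes. The largest genotype estimate among them was that of Saa3, −1.48 (SE 0.51, limma adjusted p = 0.588). Its knockout minus wild type values were −2.65, −1.63 and −0.15 in time order. As this test left Xist uncalled too, the missing calls do not show that the pathway was alike in the genotypes.

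**Figure D4:**
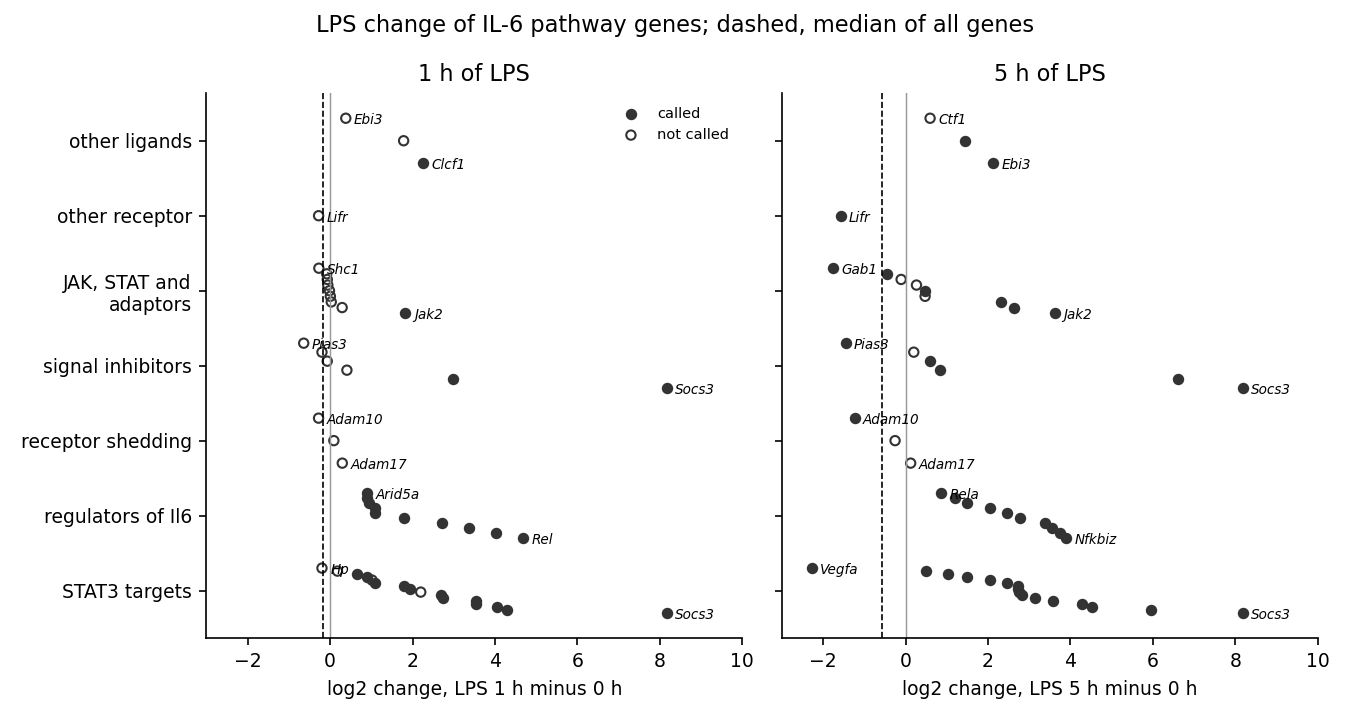
Log2 LPS change at 1 h (left) and 5 h (right) of the 44 tested pathway genes by list, 1 point per gene, filled where the limma adjusted p was under 0.05 and open otherwise; the dashed line is the median of all genes and the grey line is 0. The regulators of Il6 are filled and right of 0 in both panels, and Vegfa, Gab1, Lifr, Pias3 and Adam10 are filled and left of 0 at 5 h.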

How the data were processed

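RNA of 6 macrophage cultures was measured on 6 arrays, 1 for each genotype and time. The deposited values are intensity, on a linear scale: MAS5 signals computed by the authors, per the submitters' processing notes, with neither version nor scaling target stated in the sources used here. Trimmed array means were all 499.9, as after scaling to one target. Of the probe sets, 20380 carried 1 symbol, 691 several, 64 were controls and 1555 had none.

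Signals were raised to a floor of 18.2 and log2 was taken. Probe sets above their array's median on at least 1 array were kept (12076), and the brightest stood for each gene (7508 genes). The limma 3.58.1 fit in R 4.3.3 had additive genotype and time terms, 2 residual degrees of freedom and a prior of 2.18; calls needed a Benjamini-Hochberg adjusted p under 0.05 over all genes. The p-values measure only the spread between these arrays. With 1 array for each genotype and time, that spread is what the additive terms leave over, moderated by the prior. It is not a spread of replicates, and any genotype difference in the LPS response is part of it. Values from 2 arrays have no test. Alternatives were other floors, scalings, filters, probe set rules and terms, and leaving out each array. The named genes are all member probe sets, all measured ligands and receptors, the 3 largest rises and falls called in other lists, Jak1, Stat3 and Socs3, and the 4 nearest profiles per member. Grb2, Adam17, Rhbdf1, Mcl1 and Saa3 fall outside this rule and were named after their values were seen. The members, lists and rule were chosen with earlier results of these data known.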

Additional observations from a re-analysis of the deposited data

Results flagged for a closer look

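Several member probe sets moved one way in wild type and the other in knockout, or differed between the genotypes with a sign that changed with time. Each value below compares 1 array with 1 array, so none of these differences was tested.

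For Lif (first probe set), the log2 change at 5 h of LPS was 0.67 in wild type and −0.24 in knockout; the wild-type 0 h and knockout 5 h signals were under the floor, so both values are bounds. Knockout minus wild type for Lif was 0.24 at 0 h, 0.54 at 1 h and −0.67 at 5 h.

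For Il6ra, knockout minus wild type on the first probe set was 0.64 at 0 h, −0.22 at 1 h and 1.44 at 5 h. The second probe set had the same order of signs, at 0.59, −0.28 and 0.50. At 1 h of LPS this second probe set was at 0.093 in wild type and −0.78 in knockout.

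For Il6st (the third probe set), the change at 1 h of LPS was −0.22 in wild type and 0.033 in knockout. Knockout minus wild type on that probe set was 0.48 at 0 h, 0.73 at 1 h and −0.092 at 5 h.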

How the results depend on the processing

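In the 14 alternatives run, the calls of Il6 at both LPS times and between them, of Il6ra and Il6st at 5 h and from 1 h to 5 h, and of Lif from 1 h to 5 h all held. The 5 h estimate ranged from 8.68 to 11.94 for Il6, from −4.43 to −2.71 for Il6ra and from −2.68 to −1.67 for Il6st. The number of members called at 1 h was 2, and 1 when dim genes were kept; leaving out 1 array gave 1 to 2 at 1 h, 3 to 4 at 5 h, 4 to 4 from 1 h to 5 h and 0 to 0 between genotypes. The genotype estimate of Lif, 0.04, turned to −0.034 with the floor at the 10th percentile, −0.068 after quantile normalization and −0.14 after median centring, and ranged from −0.22 to 0.39 with 1 array left out (−0.064 without either 0 h array and −0.22 without either 1 h array). Lif at 5 h, 0.22, ranged from −0.31 (without the wild-type 5 h array) to 0.75. In a check chosen after seeing the data, the third Il6st probe set at 1 h turned from −0.09 to 0.060 (quantile normalization) and 0.086 (median centring). The cause was not tested. Over all genes, 407 were higher and 444 lower at 1 h, but 148 and 103 with dim genes kept, 194 and 60 or 197 and 51 with one or the other 0 h array left out, and 99 and 13 or 101 and 17 with one or the other 1 h array left out. The genotype test called 0 to 6 genes. No paired analysis was possible because each genotype and time has 1 array and the labels give no replicate numbers; the genotype term already serves as a block for the LPS changes, and leaving it out changed no call of a member. Dim probe sets limit what can be read for Il6 at 0 h and for Lif at 0 h and 5 h.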
